A study of Homo sapiens with 8 samples.

Results

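Gene expression was compared between cells frozen in osmolyte solutions and unfrozen cells, both mesenchymal stromal cells made from H9, a human embryonic stem cell line in wide use. The libraries were chosen by their sample titles, and 6 of the 8 libraries of the series belong to this comparison, 3 a side. The osmolyte-frozen side held cells kept for 2 h in the solution labelled SMC, for 1 h in SGC and for 1 h in SGI, and then frozen at 3 °C/min and thawed. The fresh side held cells taken at 0 h, cells kept in medium for 1 h, and cells kept for 1 h with DMSO (dimethyl sulfoxide, the conventional cryoprotectant). Per the series' design text, cells were grown on gelatin in medium with serum and used from passages 8 to 12, and vials were held at room temperature. The 2 other libraries were from cells frozen in DMSO at 1 °C/min, after 1 h and after 0 h. The names SMC, SGC and SGI are given as the labels give them, and the sources used here do not say what the solutions contain. No unfrozen cells in these solutions were analysed here, so freezing, solution and cooling rate cannot be told apart. There was 1 library per condition, and whether separate cultures were used is not given in the labels. The p-values therefore measure only the spread among libraries whose conditions differed, and this spread may be technical.

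Mesenchymal stromal cells are connective tissue cells that lay down collagen and elastic matrix and secrete growth factors, and they are stored frozen before use. Cryoprotectants limit ice damage, and osmolytes such as sugars, sugar alcohols and amino acids are compounds that cells take up or hold back as water moves. Stromal cells can take on a contractile, matrix-making state marked by smooth muscle actin, which TGF-beta signals and the YAP and SRF factors are known to drive. Shortage of amino acids and other stresses act through the factor ATF4, oxidants act through NRF2, and low oxygen acts through HIF1A.

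Counts were summed per gene by the authors. They totalled 41198716 to 45235900 in the fresh and 41903498 to 44359714 in the osmolyte-frozen libraries, and 47299694 to 51166666 in the DMSO-frozen ones. Of 23354 genes, 15564 had enough counts to be tested. Levels are given as CPM, that is, library-size scaled counts with TMM factors (trimmed mean of M-values). Values of libraries are always listed in the order 0 h, 1 h with DMSO and 1 h in medium for fresh cells, and SMC, SGC and SGI for osmolyte-frozen cells. A gene is called higher, lower, risen or fallen when edgeR's quasi-likelihood test of osmolyte-frozen against fresh cells gave a Benjamini-Hochberg adjusted p under 0.05 over all genes tested.

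The expression difference was broad and mostly modest in size. In osmolyte-frozen cells 2974 genes were higher, 19.1% of those tested, and 3262 were lower, 21.0%. For 2831 of the higher genes, 18.2% of those tested, all 3 osmolyte-frozen libraries lay above all 3 fresh ones, and for 3070 of the lower genes, 19.7%, they lay below. Most called genes thus showed no overlap, so its absence adds little to a call. The median fold was 1.51 among higher and 1.31 among lower genes. At least 2-fold changes were found for 661 higher and 268 lower genes, and at least 4-fold changes for 117 and 43. The counts of members given for each gene list are to be read against these shares, since about 1 gene in 5 was called in each direction. The shares also moved with expression level. With genes in 5 equal bins by mean CPM, 3.85% were lower in the lowest bin and 40.3% in the highest. For lists of abundant genes the share over all genes is therefore too low a yardstick for falls. The median log2 change over all genes tested was 0.02. Set against DMSO-frozen cells in the same fit, 2121 genes were higher, 13.6%, and 2563 lower, 16.5%. With library totals alone in place of TMM these became 2571 and 1985, so that 56.4% in place of 45.3% of the called genes were higher. Without the 0 h DMSO-frozen library they fell to 823 and 1313, where the single DMSO-frozen library left was taken to vary as other groups do.

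Of genes that reached 5 CPM on the higher side, ELN had the largest rise, followed by NTN1 and DKK2. ELN, which encodes elastin, the core of elastic fibres, stood at 1.03, 0.910 and 1.26 CPM in fresh and at 43.0, 41.6 and 31.1 CPM in osmolyte-frozen cells. The DMSO-frozen libraries held 3.93 and 3.12 CPM at 1 h and 0 h, between both groups. NTN1, the guidance protein netrin 1, stood at 1.83, 0.773 and 1.12 CPM and 22.0, 23.5 and 16.6 CPM. DKK2, a secreted regulator of WNT signalling, went from 5.91, 3.82 and 3.54 CPM to 56.8, 52.2 and 42.8 CPM. For each of these 3 genes the SGI library was the lowest of the osmolyte-frozen libraries and still far above every fresh one. The log2 change by edgeR was 5.18 (SE 0.17, adjusted p = 2.15e-12) for ELN, 4.05 (SE 0.27, adjusted p = 2.02e-06) for NTN1 and 3.51 (SE 0.20, adjusted p = 8.46e-07) for DKK2. In hg19, the build of the deposited table, ELN lies on chromosome 7 from 73442427 to 73484236, NTN1 on chromosome 17 from 8924859 to 9147317 and DKK2 on chromosome 4 from 107842959 to 107957453.

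INHBB, a subunit of activin B, was at 1.39, 0.819 and 0.970 CPM in fresh and 10.7, 10.4 and 10.3 CPM in osmolyte-frozen cells. ASPN, the matrix proteoglycan asporin, was at 1.03, 1.18 and 0.825 CPM and 9.40, 10.5 and 9.18 CPM. BMP4, a bone morphogenetic protein, was at 1.79, 2.00 and 1.70 CPM and 15.3, 13.5 and 12.1 CPM. All 3 were near 1 to 2 CPM in each fresh library, so their folds rest on low fresh counts. The same limit holds for ELN and NTN1 above and for NUPR1, CHAC1 and NOG below. NUPR1, a stress-induced nuclear protein, rose from 1.16, 0.955 and 1.31 CPM to 8.81, 9.60 and 8.22 CPM, and its DMSO-frozen values of 1.62 and 1.30 CPM were near the fresh ones. CHAC1, which degrades glutathione, was at 1.88, 2.23 and 2.04 CPM in fresh cells and at 8.37, 17.1 and 14.8 CPM after freezing, where SMC, held for 2 h, was lower than SGC and SGI, held for 1 h. Further rises of 5.93- to 6.95-fold were those of ITIH3, FAM84B, the galactosyltransferase B3GALT2, the BMP antagonist NOG, LRRN1, PRR15 and the basement membrane protein FRAS1. By edgeR the adjusted p among these 7 ran from 2.15e-12 for LRRN1 to 3.58e-07 for FRAS1.

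**Figure D1:**
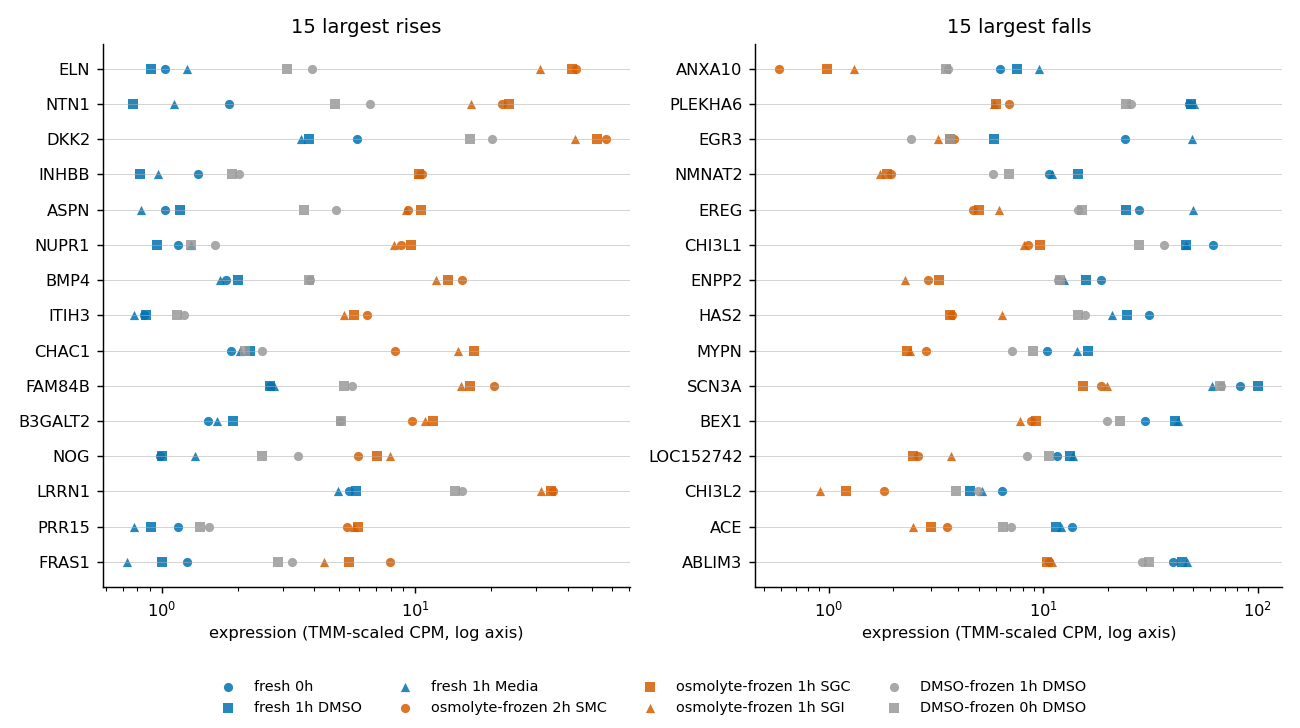
Expression of the 15 genes with the largest rise (left) and the 15 with the largest fall (right) among called genes without overlap and with at least 5 CPM on the higher side. Each point is 1 library on a log axis of TMM-scaled CPM, blue for fresh, orange for osmolyte-frozen and grey for DMSO-frozen cells. The osmolyte-frozen points lie apart from the fresh ones in every row, as the rule that chose the genes requires. EGR3 shows the widest spread among fresh libraries, 24.0, 5.87 and 49.1 CPM.

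Among the largest falls, ANXA10, an annexin, stood at 6.26, 7.5 and 9.56 CPM in fresh and at 0.587, 0.982 and 1.31 CPM in osmolyte-frozen cells, 8.02-fold lower. PLEKHA6 stood at 47.6, 48.7 and 50.3 CPM and 6.95, 5.98 and 5.87 CPM, 7.80-fold lower. Both groups were tight for PLEKHA6, whose log2 change was -2.96 (SE 0.09) with the edgeR adjusted p at 1.53e-13. NMNAT2, an enzyme of NAD synthesis, went from 10.6, 14.5 and 11 CPM to 1.96, 1.88 and 1.74 CPM. CHI3L1, a secreted chitinase-like glycoprotein, went from 61.8, 46.3 and 46.4 CPM to 8.51, 9.69 and 8.14 CPM, and its relative CHI3L2 from 6.40, 4.55 and 5.19 CPM to 1.81, 1.21 and 0.914 CPM. No osmolyte-frozen value of these 5 genes reached a fresh one, as the rule that chose them requires. ENPP2, the gene of autotaxin, a secreted phospholipase D, fell from 18.5, 15.7 and 12.5 CPM to 2.89, 3.26 and 2.26 CPM. HAS2, a hyaluronan synthase, fell from 31.0, 24.5 and 20.8 CPM to 3.77, 3.66 and 6.44 CPM, with SGI the highest of the frozen libraries. SCN3A, a sodium channel subunit, fell from 82.1, 101 and 61.3 CPM to 18.6, 15.2 and 19.8 CPM, and ACE, the angiotensin-converting enzyme, from 13.6, 11.4 and 12.1 CPM to 3.57, 2.99 and 2.48 CPM. MYPN, BEX1, LOC152742 and the actin-binding protein ABLIM3 fell 4.10- to 5.40-fold. PLEKHA6 lies on chromosome 1 from 204187981 to 204329057 and ANXA10 on chromosome 4 from 169013688 to 169108893 in hg19.

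EREG and EGR3 fell against fresh libraries that differed among themselves. EREG, the EGF-like ligand epiregulin, was at 27.8, 24.2 and 49.6 CPM in fresh and 4.70, 5.0 and 6.22 CPM in osmolyte-frozen cells (edgeR adjusted p = 0.00109). EGR3, an immediate early transcription factor, was at 24.0, 5.87 and 49.1 CPM and 3.82, 3.66 and 3.22 CPM. The fresh library with DMSO was close to the frozen ones for EGR3. Its edgeR adjusted p was 0.0413, and by edgeR it was 0.0834 without the fresh 0 h library, 0.0781 without the fresh library in medium and 0.184 among libraries held for 1 h.

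Among genes reaching 100 CPM on the higher side, the largest rise was that of CLSTN2, a neural calsyntenin, at 35.0, 26.2 and 23.8 CPM in fresh and 207, 163 and 131 CPM in osmolyte-frozen cells. SULF2, which trims sulphates from heparan sulphate, rose from 52.1, 44.6 and 42.3 CPM to 234, 241 and 195 CPM. IGFBP5, a binding protein of insulin-like growth factors, rose from 944, 951 and 888 CPM to 3143, 3421 and 3198 CPM and was by far the most abundant of the 10. CADM1, an adhesion molecule, rose 3.73-fold, ADAMTS14, a procollagen protease, 3.51-fold, and DCN, the proteoglycan decorin, 3.68-fold, with decorin lower in SGI (161, 176 and 113 CPM). FGG, the gamma chain of fibrinogen, had the largest fall of this class, from 712, 829 and 861 CPM to 215, 255 and 216 CPM. PPAP2B, a lipid phosphatase that degrades lysophosphatidic acid, fell from 176, 176 and 177 CPM to 55.5, 51.4 and 52.2 CPM, and S1PR3, a receptor for sphingosine 1-phosphate, from 177, 142 and 121 CPM to 50.1, 47.9 and 50.5 CPM. IL1R1, the interleukin 1 receptor, fell 3.16-fold and DIO2, a deiodinase that activates thyroid hormone, 3.03-fold. In all 20 of these genes the 3 osmolyte-frozen libraries were on 1 side of the 3 fresh ones, as the rule that chose them requires.

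Smooth muscle and contractile genes were higher as a group. Of 17 members, all tested, 14 rose and 1 fell, with a median log2 change of 0.79 against 0.02 over all genes. ACTA2, smooth muscle actin, stood at 43.2, 43.9 and 42.5 CPM in fresh and 150.4, 172 and 147 CPM in osmolyte-frozen cells. ACTG2, the enteric form, whose reads may be split with ACTA2, stood at 64.7, 75.6 and 81.2 CPM and 278, 347 and 315 CPM. CNN1, the actin-binding protein calponin 1, stood at 36.3, 39.1 and 37.6 CPM and 103, 115 and 109 CPM. In each of the 3 genes SGC was the highest library, and no osmolyte-frozen value overlapped a fresh one, as for most called genes. The log2 change was 1.86 (SE 0.08, edgeR adjusted p = 5.95e-12) for ACTA2. TNNT2, a troponin of heart muscle, was at 0.268, 0.0910 and 0.0970 CPM in fresh and 4.65, 4.96 and 4.44 CPM in osmolyte-frozen cells, so that it passed the filter on low counts through its level after freezing. The tropomyosins TPM1 and TPM2 rose 1.64-fold and 1.36-fold, TAGLN, transgelin, 1.87-fold, and MYL9, a myosin light chain, 1.68-fold. MYLK, the kinase of myosin light chains, fell from 116, 128 and 113 CPM to 74.6, 66.2 and 64.0 CPM. DES, desmin, and SYNPO2 were not called, at log2 changes of -1.15 and 0.12. Against DMSO-frozen cells 14 members were higher and 1 lower by the edgeR test, ACTA2 by 2.63-fold (adjusted p = 5.15e-09).

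Promoters of the listed genes were searched for binding motifs, and the sequences of the contractile members that held the CArG box, the site of the SRF factor, are shown because these genes are known SRF targets. RefSeq promoters (GRCh38.p14, 250 bases before to 50 after the start site) were matched for 13 of 17 contractile genes, 76.5%, and for 11695 of 15564 genes tested, 75.1%. With under 80% matched, shares over the lists are void as a check and only describe the matched windows. The CArG box was found in 3 of the 13 windows and in 1.29% of all 27305 promoters. These windows are 100 bases each, 5′ to 3′ along the gene, with the CArG box in capitals.
ACTG2: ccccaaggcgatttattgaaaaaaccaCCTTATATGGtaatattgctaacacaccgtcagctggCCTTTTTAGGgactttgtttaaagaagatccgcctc
LDB3: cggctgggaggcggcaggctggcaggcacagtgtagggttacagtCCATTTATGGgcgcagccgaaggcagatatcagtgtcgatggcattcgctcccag
MYLK: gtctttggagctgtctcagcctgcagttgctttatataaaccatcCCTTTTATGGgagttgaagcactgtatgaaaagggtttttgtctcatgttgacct
They lie at chr2:73892871-73892970 (+ strand) for ACTG2, chr10:86668409-86668508 (+ strand) for LDB3 and chr3:123620588-123620687 (- strand) for MYLK in GRCh38.p14. ACTG2 held 2 boxes, starting 110 and 73 bases before the start site searched, LDB3 1 at 57 bases and MYLK 1 at 94 bases. Only 1 start site was searched per gene symbol, while counts were summed over each gene. Whether these windows belong to the transcripts counted, such as those of the MYLK kinase, was not tested. ACTG2 and LDB3, a protein of muscle Z-discs, rose, at 2.09 and 1.36 on the log2 scale, and MYLK fell, at -0.81.

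These windows were chosen after their values were seen, from a search of 7 motifs in 50 lists, 350 combinations in all, on both strands. The motif searched for the amino acid response, TGATGNAAT, to which C/EBP and ATF factors bind, was in 0 of the 25 matched promoters of that list, against 1.02% of all promoters. At so low a share, 0 matches in 25 promoters decides nothing. The antioxidant response element core, TGACNNNGC, was in 4 of 24 matched NRF2 targets and in 13.6% of all promoters. Over all genes tested and matched, the share with a motif was close between called higher, called lower and uncalled genes. For the CArG box it was 1.18%, 1.16% and 1.14%, for the TEAD site CATTCC 11.9%, 10.4% and 11.2%, and for the AP-1 site TGANTCA 4.67%, 5.18% and 4.64%. For TGACNNNGC it was 13.7%, 15.9% and 14.7%, for the E-box CACGTG 9.21%, 10.7% and 9.42%, for the sterol regulatory element TCACNCCAC 1.42%, 0.976% and 1.17%, and for TGATGNAAT 0.661%, 0.526% and 0.492%. A match or its absence describes these letters in this window.

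Targets of YAP and TAZ, the factors that answer to cell shape and stiffness, went both ways. Of 18 tested, 5 rose and 6 fell. ANKRD1, a leading target, was at 42.0, 37.3 and 41.3 CPM in fresh cells, 35.5 and 46.1 CPM in DMSO-frozen cells and 131, 146 and 127 CPM in osmolyte-frozen cells, where it was 3.34-fold above fresh (edgeR adjusted p = 2.71e-10). The list's median log2 change of 0.05 was close to that of all genes and changed sign without the fresh 0 h or the SMC library, with hold time in the model and among libraries held 1 h.

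Elastic fibre genes went both ways. Of 22 genes, all tested, 12 rose and 7 fell, with a median log2 change of 0.29. Elastin itself had the largest change of the list. FBLN5, fibulin 5, which places elastin on microfibrils, rose from 37.0, 32.2 and 31.2 CPM to 133, 154 and 134 CPM. LOXL4, a lysyl oxidase that cross-links matrix, rose from 31.3, 29.0 and 29.6 CPM to 91.3, 86.7 and 77.3 CPM, and MFAP2, a microfibril protein, from 55.4, 47.5 and 53.7 CPM to 101, 103 and 99.2 CPM. For all 3 the groups were apart, as for most called genes, and the edgeR adjusted p was 6.95e-12, 2.13e-10 and 4.82e-08. FBN1, fibrillin 1, the main microfibril protein and the most abundant member, fell from 4537, 4658 and 3842 CPM to 3488, 3218 and 2985 CPM, and FBN2 fell 1.32-fold with libraries that overlapped. LOX fell 1.21-fold and LTBP1, which tethers latent TGF-beta, 1.42-fold, while LTBP2 rose 1.43-fold.

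Proteoglycans, among them the small leucine-rich ones that coat collagen fibrils, rose more often than they fell. Of 24 listed, 17 were tested, 9 rose and 4 fell. Those that rose were led by asporin and included PODN, podocan (2.06, 1.77 and 1.94 CPM fresh and 7.73, 7.01 and 6.40 CPM osmolyte-frozen), and BGN, biglycan (1392, 1183 and 1275 CPM and 2478, 2312 and 2187 CPM). LUM, lumican, differed among the solutions, with 46.5, 34.4 and 23.7 CPM against 10.8, 9.10 and 7.91 CPM in fresh cells. The 4 that fell were SDC1, SDC3 and SDC4, which are cell-surface syndecans, and HSPG2, perlecan, by 1.20-fold to 1.58-fold.

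Collagens and their processing enzymes rose in 13 and fell in 3 of 27 genes tested, with a median of 0.26. COL16A1 rose from 375, 306 and 340.4 CPM to 589.9, 599 and 568 CPM, COL18A1, a basement membrane collagen, 1.56-fold, and COL8A1 1.54-fold. COL1A1, the most abundant member, was at 31687, 28921 and 30321 CPM and 45295, 35073 and 33393 CPM, with SMC the highest, a rise of 1.25-fold. COL1A2, its partner chain, was not called, at a log2 change of 0.09. COL6A3 fell from 5138, 4638 and 4182 CPM to 2238, 2159 and 2281 CPM. With hold time as a covariate 8 members rose, and without SGI 1 fell.

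Matrix proteases and their inhibitors rose in 12 and fell in 7 of 28 tested. MMP2, a gelatinase, rose from 1966, 1762 and 1767 CPM to 3014, 3079.7 and 2758 CPM, MMP11 2.15-fold, PLAU, the plasminogen activator urokinase, 1.59-fold and ADAMTS6 1.70-fold. The membrane sheddases ADAM9, ADAM10, ADAM12 and ADAM17 all fell, by 1.19-fold to 1.56-fold, a set picked out after its values were seen.

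Integrins and laminins, the adhesion receptors and the basement membrane proteins they bind, were lower in 13 and higher in 8 of 25 tested. LAMB3, a laminin beta chain, fell from 16.3, 17.8 and 17.7 CPM to 5.38, 4.73 and 4.96 CPM, and LAMA3, an alpha chain, fell 2.04-fold. ITGA5, the fibronectin receptor chain, fell from 858, 891 and 995 CPM to 572, 544 and 521 CPM. ITGA11, a collagen receptor chain, rose from 733, 588 and 593 CPM to 1543, 1477 and 1286 CPM, and its relative ITGA1 rose 2.94-fold. Hyaluronan genes split as well, with HAPLN1, a link protein, rising 2.11-fold and CD44, the hyaluronan receptor, falling 2.07-fold from 545, 583 and 538 CPM to 277, 254 and 273 CPM.

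**Figure D2:**
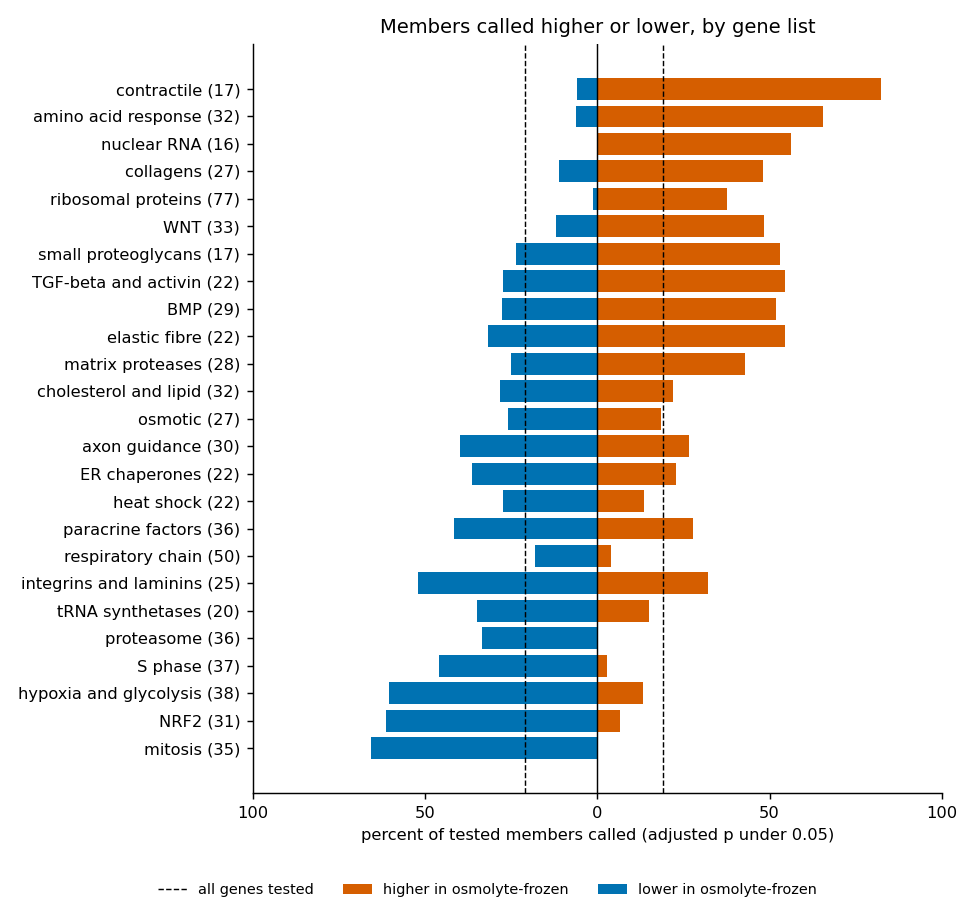
Percent of tested members called higher (orange, right) or lower (blue, left) in osmolyte-frozen than in fresh cells, for 25 gene lists. The number tested is in brackets and dashed lines mark the share over all genes, 19.1% higher and 21.0% lower. Contractile genes, at 14 of 17, reach farthest to the right, and mitosis genes, at 23 of 35, farthest to the left.

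Genes of the BMP pathway rose more often than they fell. Of 30 genes listed, 29 were tested, 15 rose and 8 fell, with a median of 0.34. Without SGI 4 fell. Among ligands, BMP2 rose from 5.10, 3.37 and 4.32 CPM to 11.3, 14.1 and 13.2 CPM, GDF6 from 110.2, 107 and 104 CPM to 282, 307 and 271 CPM and GDF15, a stress-induced member, from 8.99, 6.0 and 7.08 CPM to 18.8, 19.3 and 17.5 CPM. Groups did not overlap for these 3, as for most called genes, and the edgeR adjusted p was 9.07e-08, 7.15e-11 and 1.34e-06. Of the secreted antagonists, NOG rose from 0.984, 1.00 and 1.36 CPM to 5.97, 7.10 and 7.96 CPM, whereas the more abundant GREM1 fell from 888, 899 and 787 CPM to 717, 674 and 545 CPM. The receptors BMPR2 and BMPR1B fell 1.31-fold and 1.83-fold with overlapping libraries. Of the transducers, SMAD1 rose 1.47-fold and SMAD5 fell 1.33-fold. The target ID1 fell from 67.4, 67.3 and 109 CPM to 28.1, 38.7 and 34.1 CPM, and ID2, ID3 and ID4 were not called.

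TGF-beta and activin genes rose in 12 and fell in 6 of 22 tested. Besides INHBB, the ligands TGFB3 and TGFB2 rose 1.96-fold and 1.29-fold, and FST, follistatin, which binds activin, rose 1.96-fold. TGFBR1 rose 1.79-fold, TGFBR2 fell 1.37-fold and TGFBR3 fell 2.07-fold. SMAD3, which carries the signal to the nucleus, fell from 415, 428 and 419 CPM to 232, 195 and 207 CPM (edgeR adjusted p = 1.22e-08). Targets went apart: CDKN2B, a cell cycle inhibitor, rose from 25.5, 22.8 and 25.3 CPM to 97.5, 84.9 and 68.9 CPM, and TGFBI, a secreted adhesion protein, fell from 7408, 6803 and 7335 CPM to 3176, 3636 and 3243 CPM. COMP, a matrix protein under 1 CPM in every library, passed at an edgeR adjusted p of 0.0196 and did not pass in 5 of the alternatives.

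In the WNT pathway 41 genes were listed and 33 tested, of which 16 rose and 4 fell. Among the inhibitors, besides DKK2, DKK1 rose from 8.05, 7.05 and 7.37 CPM to 16.3, 20.8 and 18.2 CPM and FRZB rose 2.34-fold. WNT11, a ligand, rose from 0.537, 0.273 and 0.388 CPM to 2.64, 3.53 and 2.87 CPM, and WNT5B rose 1.70-fold. The receptor FZD1 rose from 52.3, 39.6 and 40.0 CPM to 155, 145 and 131 CPM. Of the nuclear factors TCF7L1 rose 1.67-fold, TCF7 fell 2.04-fold and CTNNB1, beta-catenin, fell 1.34-fold, while the target AXIN2 rose 2.01-fold. LGR4, a receptor for R-spondins, fell from 366, 392 and 314 CPM to 210.4, 162 and 153 CPM.

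Secreted growth factors by which stromal cells act on neighbours were split. Of 38 listed, 36 were tested, 10 rose and 15 fell. IGFBP7 rose from 749.7, 709.6 and 733 CPM to 1899, 2037 and 1715 CPM and BDNF, a neurotrophin, from 48.9, 50.5 and 55.2 CPM to 114, 118 and 110.5 CPM. KITLG, stem cell factor, fell from 114, 120.4 and 95.8 CPM to 44.5, 39.0 and 47.4 CPM. Chosen after their values were seen, HGF, hepatocyte growth factor, fell 3.01-fold, ANGPT1, angiopoietin 1, fell 3.60-fold, and GDNF, a neurotrophic factor, rose 3.23-fold. Axon guidance genes, 30 tested of 34, rose in 8 and fell in 12. EFNA1, an ephrin, rose from 3.94, 3.96 and 5.29 CPM to 16.1, 16.2 and 13.8 CPM and NTN4 2.15-fold, while NRP1, a neuropilin, fell from 994, 1062 and 935 CPM to 628, 613 and 603 CPM and SEMA7A fell 1.83-fold. EGFR itself fell from 188, 200.4 and 144 CPM to 83.1, 84.8 and 98.6 CPM, and LRIG1, which restrains it, rose from 66.8, 57.4 and 58.0 CPM to 195, 183 and 175 CPM.

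Genes of the amino acid response, through which ATF4 raises amino acid synthesis and import, were higher. Of 33 listed, 32 were tested, 21 rose and 2 fell, with a median log2 change of 0.57. Among regulators, ATF4 itself was at 211, 193 and 241 CPM in fresh and 300.3, 308 and 299.7 CPM in osmolyte-frozen cells, and DDIT3, the factor CHOP, was at 5.91, 6.59 and 8.39 CPM and 13.8, 14.6 and 14.7 CPM. ADM2, a peptide of the adrenomedullin family, rose from 3.31, 3.27 and 3.30 CPM to 14.7, 18.8 and 18.4 CPM (edgeR adjusted p = 8.35e-11). Enzymes of synthesis rose, with ASNS, asparagine synthetase, at 17.5, 17.7 and 19.8 CPM and 32.6, 51.8 and 44.5 CPM, PSAT1, of serine synthesis, at 14.2, 14.8 and 15.9 CPM and 36.0, 60.9 and 53.8 CPM, and CBS, which makes cystathionine, at 5.06, 4.18 and 5.92 CPM and 14.1, 17.4 and 19.5 CPM. SMC was the lowest of the 3 solutions in each of ASNS, PSAT1 and CBS. Of the transporters SLC6A9, for glycine, rose 2.43-fold, SLC7A5 1.46-fold and SLC3A2 1.51-fold, and SLC7A1 fell 1.24-fold. The cystine transporter SLC7A11 was not called, at 16.8, 21.0 and 16.4 CPM and 17.9, 23.9 and 28.9 CPM. SESN2, sestrin 2, rose 1.58-fold. In the DMSO-frozen libraries the list's median stood at 0.09 and 0.05 relative to the fresh mean (log2), against 0.46 in SMC, 0.72 in SGC and 0.60 in SGI. Against DMSO-frozen cells 22 members were higher and 1 lower by edgeR.

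Other genes of protein synthesis and folding moved less. Of 77 ribosomal protein genes tested, 29 rose and 1 fell, with a median of 0.14, and none rose 2-fold. RPL31 went from 398, 377 and 419 CPM to 476, 541 and 536 CPM and RPS19 from 519.6, 486 and 552 CPM to 664, 669 and 639 CPM. The count of ribosomal genes that rose was 12 without the fresh 0 h library, 12 without the fresh library with DMSO and 15 without SGC. The 1 that fell, RPL21, was under 2 CPM in every library, and many ribosomal genes have near-identical processed copies that can take part of their reads. Of 20 tRNA synthetases 3 rose, among them MARS (1.35-fold), and 7 fell, and 1 rose without the fresh 0 h library or SGC. ER chaperones rose in 5 and fell in 8 of 22, with HERPUD1, of ER-associated degradation, rising from 77.4, 74.4 and 81.4 CPM to 119, 140.3 and 119.5 CPM and PDIA6, a disulphide isomerase, falling 1.48-fold. Without the fresh library with DMSO or SGI, 5 ER chaperones fell. Heat shock genes rose in 3 and fell in 6 of 22, with HSPA4 falling 1.5-fold, and 1 rose without the fresh 0 h library, the fresh library with DMSO or SMC. Of 36 proteasome subunits 12 fell and 0 rose by edgeR (0 at an unadjusted p under 0.05 and 0 by DESeq2), with PSMD2 falling 1.41-fold and PSMD1 1.42-fold. The count of falling subunits was 7 without the fresh library in medium, without SMC, without SGI or with hold time as a covariate. The shares that fell were 33.3% of proteasome subunits, 36.4% of ER chaperones, 35.0% of tRNA synthetases and 27.3% of heat shock genes. All were above the 21.0% over all genes and under the 40.3% of the highest bin by level. The lists were not matched for level.

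Genes of the NRF2 response to oxidants were lower. Of 31 genes, all tested, 19 fell and 2 rose, with a median log2 change of -0.30. NQO1, a quinone reductase, stood at 251, 262 and 275 CPM in fresh and 77.5, 97.3 and 98.6 CPM in osmolyte-frozen cells, with a log2 change of -1.53 (SE 0.09, edgeR adjusted p = 2.91e-10). SOD2, the mitochondrial superoxide dismutase, went from 69.6, 58.8 and 61.1 CPM to 29.8, 27.1 and 28.8 CPM. TKT, transketolase, went from 436, 484 and 526 CPM to 247, 240.3 and 258 CPM. No osmolyte-frozen value of these 3 genes reached a fresh one, as for most called genes. TXNRD1, a thioredoxin reductase, fell 1.9-fold, HMOX1, haem oxygenase 1, 1.81-fold and CAT, catalase, 1.74-fold. NFE2L2, which encodes NRF2, fell 1.20-fold and its inhibitor KEAP1 1.17-fold. The 2 that rose were SOD3, the extracellular dismutase, from 3.89, 2.68 and 3.83 CPM to 8.56, 8.53 and 6.88 CPM, and GCLC, of glutathione synthesis, by 1.35-fold, while its partner GCLM fell 1.43-fold.

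**Figure D3:**
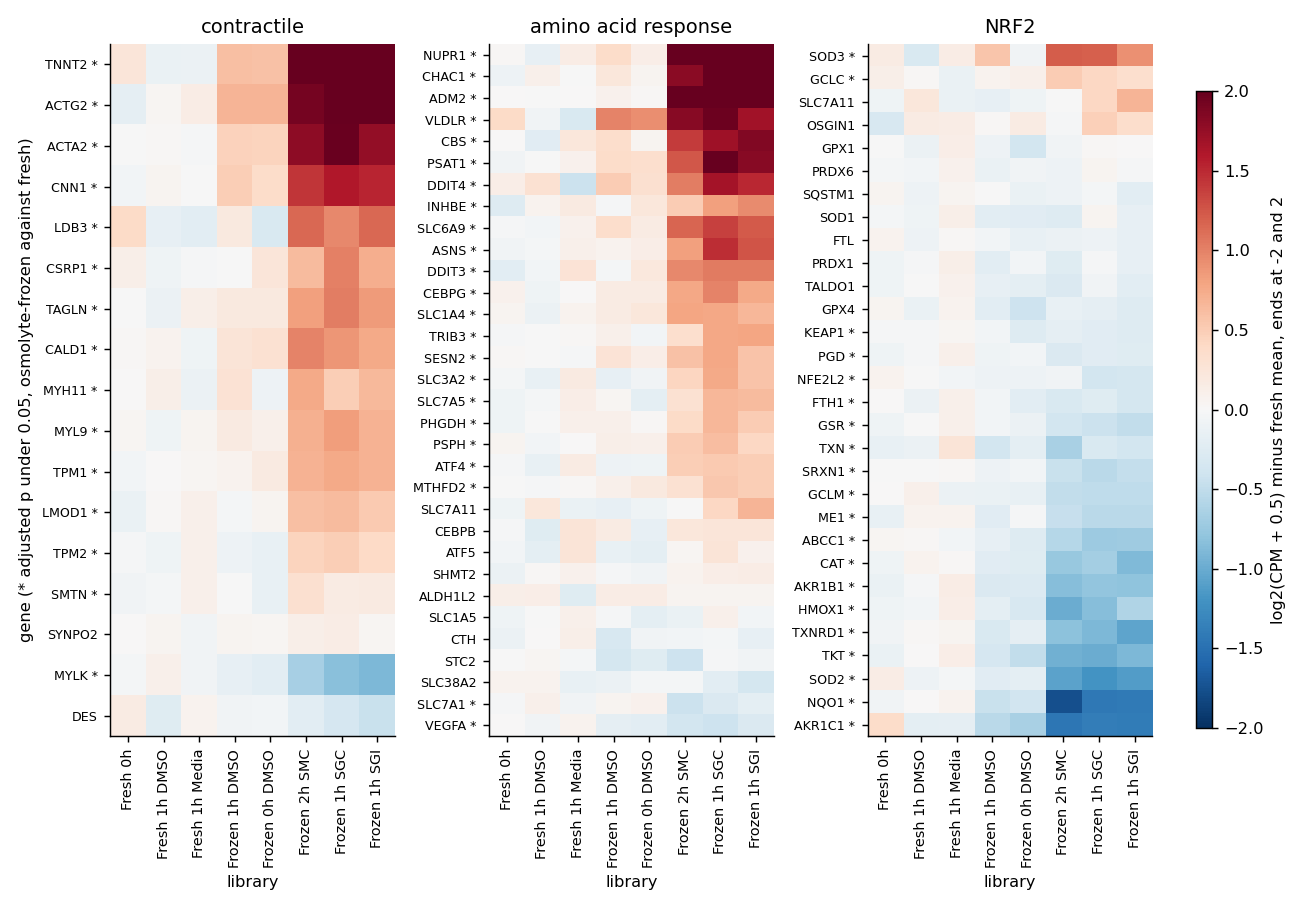
Log2(CPM + 0.5) of tested members of 3 lists in each library, minus the mean of the 3 fresh libraries, from blue (lower) to red (higher), with the scale ending at -2 and 2. Stars mark genes called between osmolyte-frozen and fresh cells. The 3 columns at the right of each panel are the osmolyte-frozen libraries, where contractile and amino acid response genes are mostly red and NRF2 genes mostly blue. The 2 DMSO-frozen columns are mostly paler.

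Hypoxia and glycolysis genes were also lower, with 23 of 38 falling and 5 rising and a median of -0.29. CA12, a carbonic anhydrase, fell from 95.8, 93.1 and 101 CPM to 27.4, 28.2 and 30.4 CPM, and HIF1A, the oxygen-regulated factor, from 786, 833 and 717 CPM to 352, 357 and 371 CPM. Glycolytic enzymes fell with them, PKM2, pyruvate kinase, from 1501, 1587 and 1629 CPM to 939.6, 994 and 981 CPM and LDHA, lactate dehydrogenase, from 690.1, 800.0 and 818 CPM to 448, 514 and 486 CPM. Both glucose transporters called, SLC2A1 and SLC2A3, rose, by 1.34-fold and 1.30-fold.

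Genes of osmotic stress and osmolyte transport went both ways, with 5 of 27 tested rising and 7 falling. The count of those rising was 2 without the fresh 0 h library, SMC or SGI and 3 without the fresh library in medium or SGC. SLC6A6, the taurine transporter, fell from 552, 624 and 612 CPM to 227, 200.2 and 197 CPM, with DMSO-frozen libraries at 403 and 378 CPM in between. AKR1B1, aldose reductase, which makes sorbitol and is also on the NRF2 list, fell from 113, 122 and 138 CPM to 68.2, 71.4 and 70.6 CPM. LRRC8D, a subunit of volume-regulated anion channels, fell 1.56-fold, and SLC12A4, a potassium chloride cotransporter, rose 1.45-fold. NFAT5, the factor that answers to hypertonic stress, rose 1.23-fold.

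Cell cycle genes were lower by small folds. Of 37 S phase genes 17 fell and 1 rose, and of 35 mitosis genes 23 fell and 0 rose by edgeR. No mitosis gene was higher at an unadjusted p under 0.05 (0 of 35), and DESeq2 called 0 higher. DNMT1, the maintenance methyltransferase, went from 199, 202 and 198 CPM to 106, 99.5 and 120.0 CPM. RRM1 and RRM2, the subunits of ribonucleotide reductase, fell 1.64-fold and 1.54-fold, and TK1, thymidine kinase, 1.70-fold. TPX2, of the spindle, went from 151, 175 and 171 CPM to 103, 101 and 121 CPM and BIRC5, survivin, from 46.5, 55.9 and 62.4 CPM to 36.4, 30.9 and 32.5 CPM. CDC20 and CCNA2, cyclin A2, each fell by under 1.5-fold, 1.47-fold and 1.47-fold. Inhibitors of the G1 kinases at the INK4 locus rose, with CDKN2A, whose reads may be shared with its neighbour CDKN2B, at 21.0, 21.4 and 25.3 CPM and 43.6, 40.1 and 37.7 CPM. CCND2, cyclin D2, rose from 1.34, 1.55 and 1.07 CPM to 5.92, 6.16 and 3.44 CPM, with SGI the lowest frozen library. As these are bulk samples, fewer cells of a type and less RNA per cell cannot be told apart.

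Most of the listed markers of mesenchymal stromal cells were expressed on both sides. The summed level of 27 markers was 121903 to 143257 CPM in the fresh and 134754 to 162963 CPM in the osmolyte-frozen libraries by untrimmed library totals. Abundant matrix genes such as COL1A1 are in this sum and far exceed the surface markers, and NGFR was too low to test. THY1 stood at 227, 247 and 259 CPM in fresh and 293, 299.8 and 261 CPM in osmolyte-frozen cells, NT5E at 249.8, 248 and 218 CPM and 156, 169 and 174 CPM, and ENG at 327, 335 and 350.1 CPM and 212, 194 and 199 CPM. Of 26 markers tested 9 rose and 10 fell. ANPEP, an aminopeptidase, fell from 199.5, 204 and 214 CPM to 73.1, 73.3 and 83.2 CPM and PDGFRA, a receptor of platelet-derived growth factor, from 269, 256 and 221 CPM to 133, 115 and 137 CPM. HLA-B, a class I antigen whose reads can be shared with its relatives, rose from 60.3, 45.9 and 56.2 CPM to 139, 142 and 122 CPM. The cells of both sides thus carried most of the markers, at changed levels for most of them.

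Markers of other cell types were low or went both ways. For 17 haematopoietic markers the sum was 5.93 to 6.99 CPM in the fresh and 8.11 to 9.45 CPM in the osmolyte-frozen libraries, 4 were tested, and CD3E, CD3D, HLA-DRA and HBB had no count in any library. For 17 pluripotent stem cell markers it was 29.4 to 31.1 CPM in the fresh and 35.1 to 45.4 CPM in the osmolyte-frozen libraries. Of 9 tested 5 rose, POU5F1, which has processed copies that can take its reads, from 3.31, 2.87 and 2.81 CPM to 4.36, 4.55 and 5.53 CPM and NANOG from 0.805, 0.728 and 0.728 CPM to 0.979, 1.29 and 2.09 CPM, while LIN28B, DNMT3L, PRDM14 and GDF3 had no count in any library. The count of 5 did not hold: it was 1 without the fresh library with DMSO, 2 without SGI, and 3 without the fresh 0 h library, without the fresh library in medium or without SGC. Endothelial markers summed to 56.1 to 63.8 CPM in the fresh and 75.2 to 79.5 CPM in the osmolyte-frozen libraries, with ERG, a transcription factor, rising 3.51-fold and TIE1 falling 1.9-fold. Epithelial markers summed to 1408 to 1623 CPM in the fresh and 1325 to 1482 CPM in the osmolyte-frozen libraries, and 6 of 18 tested rose and 6 fell, with CLDN1, a claudin, rising 4.68-fold, KRT17, a keratin, rising 3.83-fold and MALL falling 2.54-fold.

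The neural list, which was drawn up with CADM1, CLSTN2 and LRRN1 in it, summed to 254 to 284 CPM in the fresh and 463 to 517 CPM in the osmolyte-frozen libraries. This sum includes CLSTN2 and CADM1, whose rises are given above. Of 14 neural markers tested 5 rose and 5 fell, with NES, TUBB3 and BEX1 among those that fell. NTRK3, a neurotrophin receptor, rose from 4.52, 6.28 and 5.24 CPM to 22.5, 22.6 and 21.9 CPM, while SOX1, PAX3 and FOXD3 had no count. Of lineage markers that stromal cells can acquire, the chondrogenic sum was 382 to 422 CPM in the fresh and 674 to 819 CPM in the osmolyte-frozen libraries, mostly HAPLN1. The adipogenic factor PPARG fell from 9.13, 9.55 and 10.7 CPM to 3.67, 3.80 and 4.09 CPM. Skeletal muscle markers summed to 48.1 to 63.4 CPM in the fresh and 76.8 to 95.1 CPM in the osmolyte-frozen libraries, with the giant sarcomere protein TTN rising 1.80-fold and the muscle regulators MYOD1 and MYOG too low to test. What part any other cell type had in these results was not tested.

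Immediate early genes, which answer stimuli within minutes, separated the fresh libraries from each other more than the 2 sides. Their median log2 level relative to the fresh mean was 0.04 at 0 h, -0.65 for 1 h with DMSO and 0.72 for 1 h in medium, and -0.19, 0.12 and -0.18 in SMC, SGC and SGI. FOS ranged from 72.2 to 733 CPM in fresh and from 123 to 432 CPM in osmolyte-frozen cells, while EGR1 stood at 619, 143 and 1298 CPM and 307, 414 and 249 CPM, and neither was called. Of 41 tested 4 rose and 5 fell, but these counts rest on which fresh libraries are used. Without the fresh library in medium 9 rose and 4 fell, with a median log2 change of 0.24, and without the one with DMSO 2 rose and 8 fell, with a median of -0.57. Without the fresh 0 h library, SMC, SGC or SGI, 3 fell. Those with the lowest p were steadier members: ZFP36L2 fell from 123, 135 and 136 CPM to 89.9, 88.1 and 84.8 CPM and its relative ZFP36L1 rose from 152, 119 and 139 CPM to 192, 223 and 184 CPM.

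Interferon genes rose in 6 and fell in 2 of 19 tested, with TRIM22, an antiviral factor, rising 1.92-fold and OAS3, which makes oligoadenylate, falling 2.07-fold. Chemokine and NF-kappaB genes rose in 2 and fell in 2 of 23. Cholesterol and lipid genes rose in 7 and fell in 9 of 32, where SREBF1, a regulator of lipid synthesis, rose 1.59-fold and ELOVL6, a fatty acid elongase, fell 1.68-fold. Respiratory chain genes fell in 9 and rose in 2 of 50, and ATP5B, of the ATP synthase, fell 1.31-fold. The 18.0% of respiratory chain genes that fell was under the 21.0% over all genes. Autophagy genes fell in 8 and rose in 3 of 21, with TFEB, a regulator of lysosome genes, rising 1.60-fold and BECN1, beclin 1, falling 1.37-fold. Genes of p53 and apoptosis rose in 6 and fell in 4 of 29, with BBC3, the death factor PUMA, rising 2.13-fold. Leaving out 1 library moved several of these small counts by over 1.5 times. Chemokine genes that rose were 4 without the fresh 0 h library, and 1 rose and 4 fell without the fresh library with DMSO. Interferon genes that fell were 1 without the fresh 0 h library, the fresh library with DMSO, SMC or SGI. Respiratory chain genes that rose were 5 without the fresh library in medium and 1 without any of the fresh 0 h library, the fresh library with DMSO, SGC or SGI. Autophagy genes that rose were 5 without SGI, and p53 genes that fell were 2 without SGC. Members named in these sentences were picked after their values were seen where the rule on lowest p did not choose them.

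Ion channel genes rose in 7 and fell in 6 of 23, with KCNMA1, a calcium-activated potassium channel, falling from 329, 381 and 335 CPM to 205, 171 and 191 CPM. NOTCH genes rose in 4 and fell in 1 of 13, where LFNG, which modifies NOTCH receptors, rose 2.73-fold and NOTCH2 fell 1.43-fold. HOX and related positional genes rose in 5 and fell in 4 of 14 tested of 40, with HOXB2 rising 1.83-fold and TBX2 falling 2.57-fold. Clock genes rose in 1 and fell in 4 of 16. Metallothionein and zinc genes fell in 4 of 11, led by the zinc transporter SLC39A14 at 1.52-fold, and histone genes rose in 3 of 20. Hyaluronan genes rose in 6 and fell in 4 of 18, EGF family genes in 3 and 3 of 10, and G1 control genes of the cell cycle in 5 and 5 of 18. Hyaluronan genes that rose were 3 without the fresh library with DMSO, the fresh library in medium, SGC or SGI. G1 control genes that rose were 3 without the fresh 0 h library, SGC or SGI, and those that fell were 3 without SGC. Without the fresh library in medium 2 NOTCH genes fell and 2 clock genes rose, without SGI 2 clock genes rose, and without SMC 5 histone genes rose. Osteogenic markers rose in 3 and fell in 3 of 9, where SPARC, osteonectin, rose from 5663, 5414 and 5697 CPM to 9810.2, 9836 and 7969 CPM and POSTN, periostin, fell from 4333, 3640.0 and 3193 CPM to 2748, 2646 and 1864 CPM.

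The calls moved with expression level and gene class, and these values stand beside every count above. With genes in 5 equal bins by mean CPM, in the lowest bin 16.2% were higher and 3.85% lower, with a median log2 change of 0.39, and in the highest bin 15.9% were higher and 40.3% lower, with a median of -0.13. By coding length, the share called lower went from 10.4% in the shortest of 5 bins to 30.8% in the longest. Of 418 long noncoding genes tested 118 were higher and 8 lower. Within bin 1 by level, which held 221 of the long noncoding genes, 19.5% of these and 16.9% of protein-coding genes were higher. The shares were 37.2% and 25.6% in bin 2 and 34.6% and 18.5% in bin 3, where 26 long noncoding genes were tested. Zinc finger genes of the ZNF series were higher in 133 and lower in 25 of 497. In bins 1 to 4 by level, 11.1%, 25.3%, 34.0% and 33.3% of ZNF genes were higher. Over all genes in those bins the shares were 16.2%, 27.7%, 19.4% and 16.3%. Among nuclear and growth-linked noncoding RNAs 9 of 16 tested rose. MALAT1, which stays in the nucleus, rose from 4522, 4374 and 5272 CPM to 8726, 7789 and 8200.3 CPM, and LINC00312 from 1.97, 1.96 and 2.76 CPM to 9.74, 9.38 and 7.70 CPM. GAS5, a host of small nucleolar RNAs, rose 1.37-fold, and H19 1.87-fold, with SMC the highest library at 30.3, 24.4 and 19.7 CPM. The summed counts made up 66.2% to 70.4% of the library total implied by the deposited RPKM values in fresh, 64.0% to 66.9% in osmolyte-frozen and 72.1% to 73.0% in DMSO-frozen libraries. The part of these measures in the results was not tested.

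**Figure D4:**
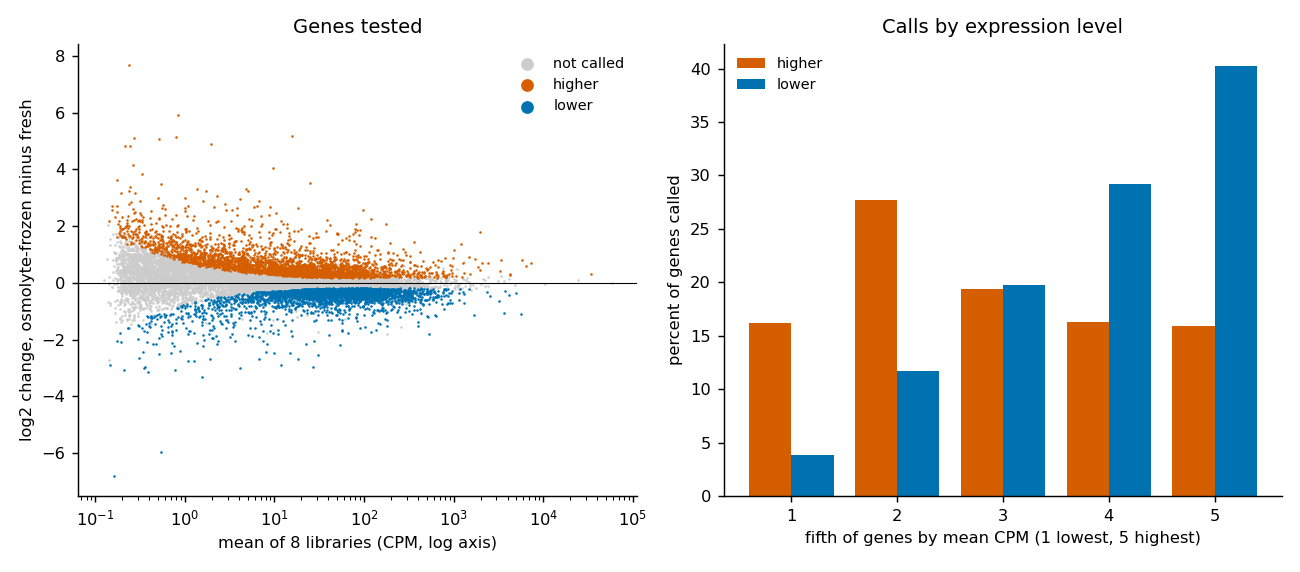
Left, log2 change of each gene tested (osmolyte-frozen minus fresh) against its mean CPM over 8 libraries on a log axis, coloured by call. Right, percent of genes called higher (orange) and lower (blue) in 5 equal bins of genes by mean CPM. The share called lower goes from 3.85% in the lowest bin to 40.3% in the highest.

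The 3 solutions lay close to each other beside their distance from fresh cells. Over the 1992 higher genes without overlap and with at least 5 CPM, the median log2 level relative to the fresh mean was 0.47 in SMC, 0.45 in SGC and 0.45 in SGI, and in DMSO-frozen cells it was 0.15 at 1 h and 0.11 at 0 h. Over the 2818 lower genes it was -0.36, -0.39 and -0.39, against -0.07 and -0.04. These genes were chosen for the difference from fresh cells, so the values describe where the libraries lie and carry no test. SMC was held for 2 h and the others for 1 h, so solution and time cannot be told apart there. With hold time as a covariate, 2562 genes were higher and 2854 lower, and among libraries held for 1 h, with 2 a side, 2377 and 3027.

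Several leading genes also differed between the frozen groups by the same edgeR fit. These groups differed in hold time and cooling rate too, which cannot be told apart from the solution. With hold time as a covariate, 1520 genes were higher and 1995 lower than in DMSO-frozen cells, in place of 2121 and 2563. Of the largest rises, ELN was 11-fold above DMSO-frozen cells (adjusted p = 1.40e-09), and NUPR1 was 6.09-fold above them (adjusted p = 5.30e-08). CLSTN2 was at 104 and 91.1 CPM in the DMSO-frozen libraries and did not pass between the frozen groups (edgeR adjusted p = 0.0536). CADM1, at 91.1 and 84.1 CPM there, was 1.39-fold higher in osmolyte-frozen cells (edgeR adjusted p = 0.000953). ID1 was at 40.5 and 31.4 CPM in DMSO-frozen and 28.1, 38.7 and 34.1 CPM in osmolyte-frozen cells, and MALL at 8.92 and 9.94 CPM and 6.65, 8.13 and 8.31 CPM. Neither ID1 nor MALL passed between the frozen groups, with edgeR adjusted p of 0.822 and 0.0804. KRT17 and LINC00312 were lower in DMSO-frozen than in every fresh library, at 1.36 and 1.62 CPM and 1.44 and 1.58 CPM, and higher than fresh in every osmolyte-frozen library.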

How the data were processed

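RNA sequencing counts of 8 libraries were analysed, of which 6 form the comparison. A miRNeasy kit gave the total RNA, per the labels' protocols. CASAVA 1.9, TopHat (version given as 12.0.6), HTSeq and hg19 are named in the submitters' processing notes. The sources used here give neither a strand setting nor an annotation release. The counts were used as the authors deposited them, whole numbers per gene with no normalisation, and all are even. The deposited RPKM values, computed by the authors per the file headers, were used to recover the library totals behind them and to check levels. Of 23398 entries, 41 repeated identifiers were kept once and 8 with differing counts were kept apart, which left 23354 genes. Positions are those of the deposited table.

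Genes were filtered with filterByExpr by state (fresh or frozen), scaled by TMM and fitted in edgeR 4.0.16 (R 4.3.3) as 3 groups with robust glmQLFit and glmQLFTest, 5 residual degrees of freedom and Benjamini-Hochberg adjustment at 0.05. The biological coefficient of variation was 0.0971. The standard error (SE) is the absolute log2 change over the square root of F. The fit was also run on simulated data in which far fewer genes changed than were called here. That run therefore does not measure the error rate in these data. DESeq2 1.42.0 was an alternative, as were other scalings, no filter, counts divided by 2, hold time as a covariate and each library left out. No library was left out, and each pair of libraries differed beyond sampling noise.

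Among called genes without overlap between sides, the 15 largest rises and 15 falls at 5 CPM or more were named. So were the 10 and 10 largest at 100 CPM or more. Up to 4 called members of each of 50 lists were also named by lowest adjusted p, whether or not their libraries overlapped. Other list members named were chosen after their values were seen, as were the summaries by level, length and class. The comparison and its lists were chosen with earlier results of these data known. Lists are described by counts and medians, with no set test. Some named genes are not reported here.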

Additional observations from a re-analysis of the deposited data

How the results depend on the processing

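Over 15 alternatives the count of genes higher in osmolyte-frozen than in fresh cells ran from 2377 to 3173 and that of genes lower from 2592 to 3571, both within 1.5 times of 2974 and 3262. The counts of at least 2-fold changes ran from 557 to 734 higher and from 237 to 290 lower. Scaling by library totals gave 3173 higher and 2854 lower genes, and the median log2 change of all genes moved from 0.02 to 0.04. With 1 library left out in turn, 5001 to 5986 genes were called in place of 6236. DESeq2 called 2916 higher and 3363 lower. All 218 named genes kept their direction in every alternative that tested them, and up to 7 of them lost the call in any 1 alternative, most often EGR3, ITGAX, ZFP42 and COMP. In the comparison with DMSO-frozen cells, whose alternatives were chosen after seeing the data, leaving out the library frozen in DMSO at 0 h gave 823 higher and 1313 lower genes in place of 2121 and 2563, and leaving out the one at 1 h gave 1447 and 1805. With 1 osmolyte-frozen library left out in turn, the counts against DMSO-frozen cells ran from 1571 to 2042 higher and from 1972 to 2609 lower. Fresh libraries were not left out in this comparison. The cause of the lower counts was not tested. No paired analysis was possible because the labels carry no replicate numbers. Depth limits genes near 1 CPM, such as COMP, NANOG and ZFP42, most.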
